A study of Mus musculus with 6 samples.

Results

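The genes described here are 8 transcription factors that mark islet cell types. *Irx1*, *Irx2* and *Pou3f4* stand for the alpha cell, *Mafa* and *Mnx1* for the beta cell, *Hhex* for the delta cell, and *Pax6* and *Isl1* for all islet cells. They were chosen by name and matched through their Ensembl identifiers, and all 8 were found among the 37224 genes of the count table. Embryonic mouse pancreata were profiled by RNA-seq at 13.5 and 15.5 days post coitum (dpc), with 3 samples per stage and 6 in all. All samples were wild type pancreas of the strain given as C57/Bl6J, and no treatment or transgene separated the stages, so that the only labelled difference was embryonic age. Each sample was a pool of pancreata from up to 3 embryos, and the poly(A) RNA came from the whole organ, including the exocrine epithelium, mesenchyme and vessels. Libraries held between 10546028 and 16389237 counted reads and every 13.5 dpc library was deeper than every 15.5 dpc library. The tissue label was checked on 8 markers of pancreas epithelium, all of which had enough reads to be tested, with summed levels of 44070 to 49840 normalised counts at 13.5 dpc and 83460 to 151200 at 15.5 dpc. Of these 4 rose and 2 fell, and most of the higher sum was *Cpa1*, an acinar enzyme gene, with means of 22724 and 93358. Of 8 markers of stomach and intestine epithelium only 2 had enough reads to be tested, and both rose, the list summing to 154 to 181 and to 387.6 to 650.4.

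Endocrine cells of the mouse pancreas arise from epithelial progenitors that transiently express *Neurog3*, and their hormone fate is then fixed by homeodomain and bZIP transcription factors. *Irx1* and *Irx2* are Iroquois homeobox genes and *Pou3f4* (Brn4) is a POU-homeodomain gene, and all of them are found in glucagon cells. *Mafa* encodes a bZIP activator of the insulin genes in maturing beta cells, *Mnx1* (Hb9) encodes a homeodomain protein needed first for the dorsal bud and later in beta cells, and *Hhex* is needed for somatostatin cells. *Pax6* and the LIM-homeodomain gene *Isl1* act in all hormone lineages. None of these genes belongs to islet cells alone. *Hhex* is also a gene of liver and endothelium, *Mnx1* and *Isl1* are also genes of motor neurons, and *Isl1* is expressed in the mesenchyme of the early dorsal pancreas.

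Most members encode homeodomain proteins, a class that binds sites built around the letters TAAT, so the sequence upstream of the start of transcription was searched for TAAT on both strands (TAAT or ATTA as read 5′ to 3′). RefSeq windows of the GRCm38.p6 assembly were at hand for 6 of the 8 members, namely *Irx2*, *Pou3f4*, *Mnx1*, *Hhex*, *Pax6* and *Isl1*. Of 32851 such windows of 250 bases upstream of mouse genes, 54.9% held TAAT. The stretches upstream of an alpha-type member without the motif, an alpha-type member with 1 copy and an all-islet member with 2 copies are shown here, 5′ to 3′ on the strand of the gene, with TAAT in capitals. None of their bases lies in an exon that was counted.
Irx2, chr13:72628570-72628819, plus strand: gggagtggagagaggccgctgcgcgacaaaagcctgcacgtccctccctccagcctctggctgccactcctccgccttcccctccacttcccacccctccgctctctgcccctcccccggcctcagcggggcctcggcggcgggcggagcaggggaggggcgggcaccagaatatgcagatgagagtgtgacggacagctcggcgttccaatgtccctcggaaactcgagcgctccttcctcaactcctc
Pou3f4, chrX:110814129-110814279, plus strand: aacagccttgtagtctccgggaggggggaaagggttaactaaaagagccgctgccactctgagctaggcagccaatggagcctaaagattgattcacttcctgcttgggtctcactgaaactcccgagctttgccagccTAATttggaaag
Isl1, chr13:116309690-116309938, minus strand: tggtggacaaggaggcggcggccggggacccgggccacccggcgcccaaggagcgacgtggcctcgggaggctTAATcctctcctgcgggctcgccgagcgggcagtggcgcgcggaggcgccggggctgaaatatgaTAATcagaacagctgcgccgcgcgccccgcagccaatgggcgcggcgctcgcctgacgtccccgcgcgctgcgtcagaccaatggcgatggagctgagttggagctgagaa
The *Irx2* stretch was GC-rich, at 68.4%, as was that of *Isl1*, at 71.1%, while the *Pou3f4* stretch had 51.7% GC. *Hhex* had no TAAT in its window and *Mnx1* had 1, and each of the windows at the 2 *Pax6* starts had 2. The motif search read letters only and said nothing on binding.

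Between the stages, 1 member rose, 1 fell and 6 did not pass the test. *Mafa*, of the beta type, was 2.86-fold higher at 15.5 dpc, and *Hhex*, of the delta type, was 33.9% lower. None of the 3 alpha-type members and neither of the all-islet members passed. The 2 calls among 8 members (edgeR quasi-likelihood test, Benjamini-Hochberg adjusted p at or below 0.05 over 15578 genes) stand beside 3467 calls among all genes tested, a share of 22.3% (11.6% higher and 10.7% lower at 15.5 dpc). This share ranged from 7.83% to 48.0% when each sample in turn was left out, being lowest without the first 13.5 dpc sample and highest without the second 15.5 dpc sample, and 2 to 4 members were then called. The stages did not overlap for 5 members, 4 of them lower and 1 higher at 15.5 dpc, where 46.4% of all genes tested had stages that did not overlap, 23.6% as lower and 22.8% as higher. The median log2 fold change of the 8 members was -0.24, beside -0.01 over all genes tested. In whole-organ RNA, fewer cells of a type and less RNA per cell cannot be told apart, and this holds for every value that follows.

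**Figure D1:**
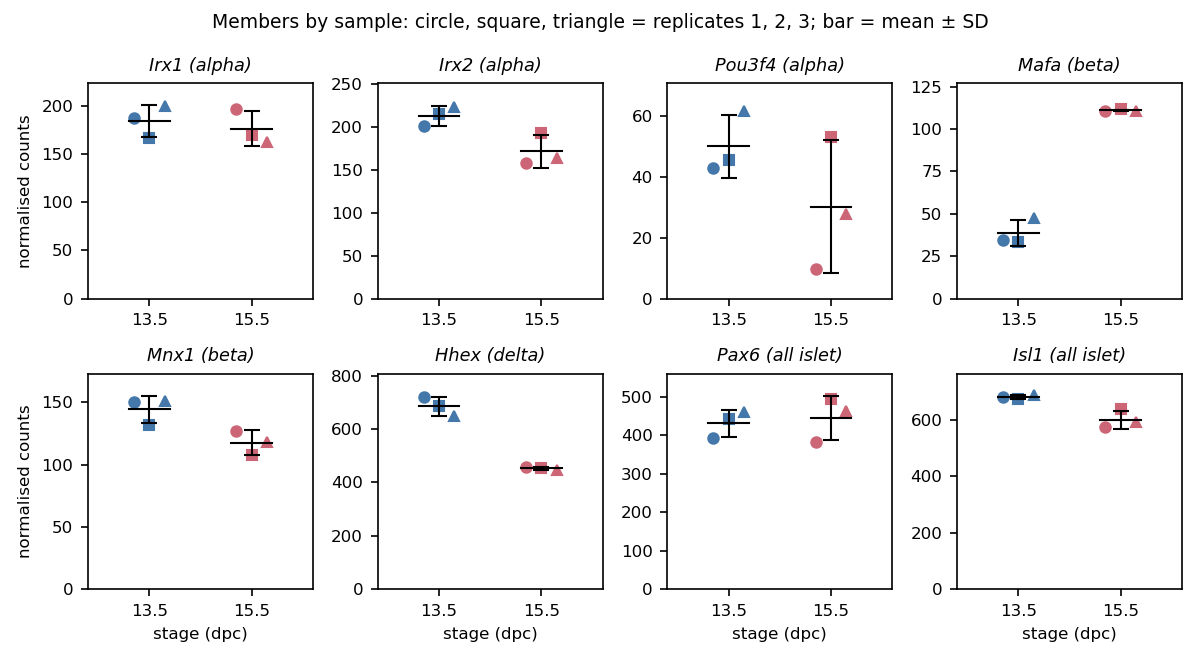
Normalised counts of each member (vertical axes, from 0) at 13.5 and 15.5 dpc (horizontal axes), with circle, square and triangle for replicates 1, 2 and 3 and the bar for the mean ± SD of 3 samples. The *Mafa* samples of 15.5 dpc lie at 110.7 to 111.5, all above 47.4, and those of *Hhex* at 447.0 to 456.7, all below 649.3, while *Pou3f4* spreads from 9.69 to 53.2 at 15.5 dpc.

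*Irx1* (ENSMUSG00000060969, mm10 chr13:71957921-71963723, minus strand) had 186.8, 166.3 and 199.7 normalised counts in the 13.5 dpc samples and 196.5, 169.8 and 162.4 in those of 15.5 dpc. Normalised counts are read counts divided by the effective size of the library and set to a common scale. The stages overlapped, and the log2 fold change was -0.07 ± 0.13 (SE, adjusted p = 0.728).

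*Irx2* (ENSMUSG00000001504, mm10 chr13:72628820-72634196, plus strand), its neighbour in the same Iroquois cluster, had 200.5, 215.2 and 223.4 normalised counts at 13.5 dpc against 157.8, 193.3 and 163.7 at 15.5 dpc. Every 15.5 dpc sample lay below every 13.5 dpc sample, with the second 15.5 dpc sample closest to the earlier stage. The log2 fold change of -0.31 ± 0.13 did not pass after adjustment (adjusted p = 0.113, unadjusted p = 0.0415), and it passed without the second 15.5 dpc sample (-0.39, adjusted p = 0.0296).

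*Pou3f4* (ENSMUSG00000056854, mm10 chrX:110814390-110815571, plus strand) was the member with the fewest reads, 267 in all libraries together. It had 42.8, 45.4 and 61.8 normalised counts at 13.5 dpc and 9.69, 53.2 and 27.7 at 15.5 dpc. The later samples differed more from each other than the stages did, the first being low and the second within the range of the earlier stage. The first sample rested on 7 reads, with an exact 95% Poisson interval of 2.81 to 14.4 reads, and the second on 52, with an interval of 38.8 to 68.2. The intervals do not overlap, and they cover counting error only. The log2 fold change was -0.68 ± 0.46 (adjusted p = 0.304), and without the second 15.5 dpc sample it was -1.39 (adjusted p = 0.0173). Without the first 15.5 dpc sample it was -0.29 (adjusted p = 0.506). The same 2 libraries stand at opposite ends of a trend with gene length: across 15578 genes, the deviation of a library from its stage mean had a Spearman correlation with exon length of -0.569 in the first 15.5 dpc library and 0.586 in the second, and the part of this in the *Pou3f4* values was not tested. With the length trend taken out, these 2 samples stood at 7.14 and 57.8. That setting took *Pou3f4* at its 1182 counted bases, while its annotated mRNA has 2928, and the longer figure was not tried.

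*Mafa* (ENSMUSG00000047591, mm10 chr15:75746843-75747922, minus strand) had 34.6, 33.4 and 47.4 normalised counts at 13.5 dpc and 110.7, 111.5 and 110.8 at 15.5 dpc. The means were 38.5 ± 7.75 and 111 ± 0.407 (SD, n = 3), and the later stage was higher in 3 of 3 samples than any earlier one. On raw reads the later samples had 80, 109 and 88, with exact 95% intervals that are each wider than the spread of the normalised values, for example 63.4 to 99.6 for the first. The log2 fold change was 1.52 ± 0.17 (adjusted p = 0.00173). It stayed between 1.25 and 1.70 and passed under each of the 16 alternative settings. The lowest value came with the length trend taken out, where the 15.5 dpc samples stood apart at 80.3, 121.6 and 102.6. That setting took *Mafa* at its 1080 counted bases, while its annotated mRNA has 2739, and the longer figure was not tried. *Mafa* was also the only member past the thresholds of the study's methods, which combine an adjusted p of no more than 0.1 with a level over 100 normalised counts at one of the stages and a fold under 0.6 or over 1.6. Of all genes tested 9.88% met these thresholds, 6.3% as higher and 3.58% as lower at 15.5 dpc. The study also set aside pseudogenes, unknown transcripts and RNA other than mRNA, which this share keeps. Of the 1539 genes behind it, 1454 were protein coding.

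*Mnx1* (ENSMUSG00000001566, mm10 chr5:29473038-29478519, minus strand), the other beta-type member, went the other way in sign. It had 150.3, 132.0 and 150.8 normalised counts at 13.5 dpc and 127.3, 107.4 and 118.4 at 15.5 dpc. Every later sample was below every earlier one, by a small margin between the first later sample and the second earlier one. The log2 fold change of -0.30 ± 0.13 did not pass (adjusted p = 0.137), and it passed with the length trend taken out (-0.40, adjusted p = 0.0308).

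*Hhex* (ENSMUSG00000024986, mm10 chr19:37432887-37440728, plus strand) had 719.8, 687.6 and 649.3 normalised counts at 13.5 dpc and 456.7, 455.1 and 447.0 at 15.5 dpc. The means were 685.6 ± 35.3 and 452.9 ± 5.18 (SD, n = 3), with all later samples below all earlier ones. The log2 fold change was -0.60 ± 0.09 (adjusted p = 0.00458), and it passed under each of the 16 alternative settings, between -0.81 and -0.55. Markers of liver, where *Hhex* is also expressed, were lower in part: 3 of 7 tested fell, 4 did not pass and none rose, and their summed level was 1207 to 1852 normalised counts at 13.5 dpc and 758 to 1149 at 15.5 dpc. Among these markers *Serpina1a* had a log2 fold change of -2.38 and *Fgb* of -1.24, while *Ahsg*, at 0.47, and *Trf*, at 0.18, had the opposite sign and did not pass. Of 8 endothelial markers none fell and 1 rose, with sums of 6427 to 6958 and 6237 to 7496. How much of the *Hhex* level came from delta cells, liver cells or any other cells of the organ was not tested.

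*Pax6* (ENSMUSG00000027168, mm10 chr2:105668896-105703160, plus strand) had 392.7, 442.4 and 460.4 normalised counts at 13.5 dpc and 382.0, 493.9 and 462.1 at 15.5 dpc. The stages overlapped, with the lowest and the highest sample both at 15.5 dpc, and the log2 fold change was 0.05 ± 0.13 (adjusted p = 0.802). This fit uses no gene length, but the setting with the length trend taken out depends on the length given to the gene. The counted exons of *Pax6* span 19833 bases, a length reached by only 32 of the genes tested, of which 2869 form one coding mRNA, and removing the length trend gave 0.49 (adjusted p = 0.0392) at the longer figure and 0.02 (adjusted p = 0.926) at the shorter. Of the counted bases, 5542 lie opposite exons of *Elp4*, which had 312 to 540 reads. The libraries were strand-specific, and the counts behave as counted by strand. Of 293 genes enclosed by exons of another gene of their own strand, none had 10 or more reads, and of 144 genes enclosed by exons of the opposite strand 28 did.

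*Isl1* (ENSMUSG00000042258, mm10 chr13:116298281-116309688, minus strand) had 681.6, 673.0 and 687.4 normalised counts at 13.5 dpc and 574.3, 636.1 and 590.6 at 15.5 dpc. The earlier samples had a coefficient of variation of 1.06%, and all later samples lay below them. The log2 fold change was -0.18 ± 0.09 (adjusted p = 0.172). Markers of neural crest, neurons and glia, lineages in which *Isl1* is also known, had summed levels of 2147 to 2254 at 13.5 dpc and 2409 to 2847 at 15.5 dpc. Of 8 tested, 4 fell and 1, *Ret*, rose 2.11-fold, beside 10.7% lower and 11.6% higher over all genes. The higher sum came from *Ret*, the only marker of the list with a positive log2 fold change. The other 7 summed to 1461 to 1507 and to 1056 to 1144, lower at 15.5 dpc without overlap. *Ret* was left out after its value was seen, so this lower sum partly follows from the choice. Over all genes tested, 23.6% were lower without overlap. Mesenchymal markers summed to 94810 to 106400 and to 69170 to 101300, with 4 of 8 lower and none higher. The collagen genes *Col1a1* and *Col3a1*, which make up most of that sum, did not pass, and leaving them out was not planned. Without them the other 6 summed to 16990 to 17450 and to 12850 to 13530, lower without overlap. The part of these cells in the *Isl1* values was not tested.

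**Figure D2:**
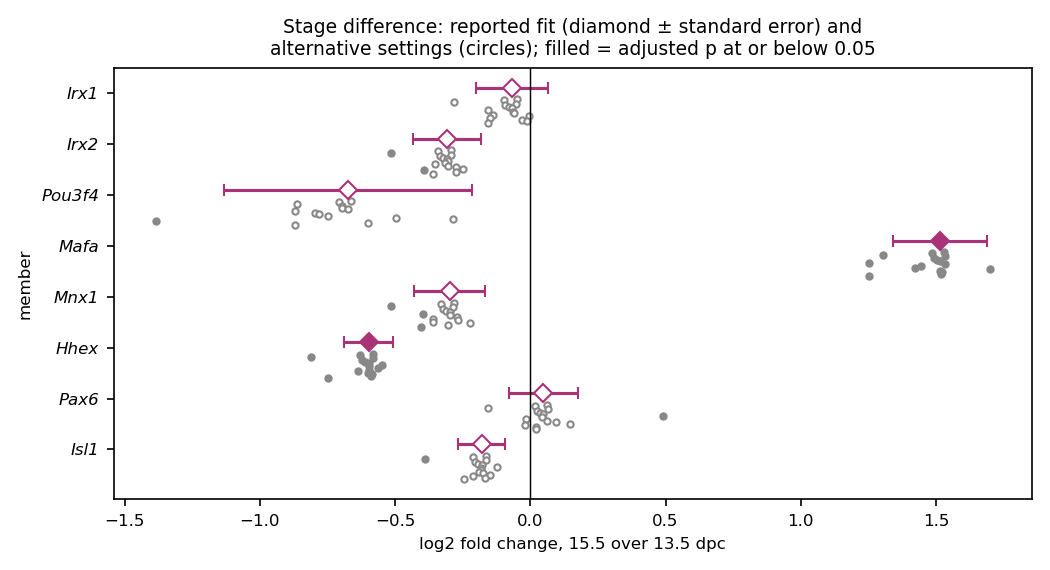
Log2 fold change of each member, 15.5 over 13.5 dpc (horizontal axis), as a diamond with its standard error from all 6 samples, and under each alternative setting as a circle, filled where the adjusted p was at or below 0.05. All circles of *Mafa* and of *Hhex* are filled, those of *Irx1* are all open, and those of *Pax6* fall on both sides of 0.

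Alpha-type members were then set against beta-type and delta-type members within each sample, as log2 ratios of counts per kilobase of counted exon, which do not depend on how the libraries are scaled. With 3 samples against 3, an exact two-sided permutation test cannot go below p = 0.1, and over the 18 ratios compared that value adjusts to 0.164, so no ratio could pass 0.05. The ratio of *Irx1* to *Mafa* was 1.30, 1.18 and 0.94 on the log2 scale at 13.5 dpc and -0.31, -0.53 and -0.58 at 15.5 dpc (exact p = 0.1). *Irx1* was thus the higher of the pair in every early sample and *Mafa* in every late one. *Irx2* and *Mafa* changed places in the same way, from 0.93, 1.08 and 0.63 to -1.09, -0.81 and -1.04 (exact p = 0.1), a change of -1.86. *Pou3f4* to *Mafa* stood at 0.18, 0.31 and 0.25 at 13.5 dpc and at -3.65, -1.20 and -2.13 at 15.5 dpc, with no overlap despite the spread of *Pou3f4*.

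Against *Mnx1* the picture differed. The mean log2 ratio of *Irx2* to *Mnx1* was 0.05 at 13.5 dpc and 0.03 at 15.5 dpc, with overlapping stages (exact p = 1), and that of *Pou3f4* to *Mnx1* also overlapped (exact p = 0.5), its change going from -0.73 to -0.00829 without the first 15.5 dpc sample and to -1.36 without the second. *Irx1* to *Mnx1* was 0.26, 0.28 and 0.36 in the early samples and 0.58, 0.61 and 0.41 in the late ones, a change of 0.23 with no overlap. Of the 6 alpha to beta ratios 4 had stages that did not overlap, where 46.4% of single genes tested did not. No such share was taken over other pairs of genes. The 3 ratios that were lower at 15.5 dpc all had *Mafa* as denominator, so each carries the rise of *Mafa* and they are not separate results.

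Relative to *Hhex*, *Irx1* was higher at 15.5 dpc by 0.53 and *Irx2* by 0.28 on the log2 scale, both with no overlap (exact p = 0.1), while *Pou3f4* overlapped (change -0.43, exact p = 0.8). That change was 0.24 without the first 15.5 dpc sample and -0.99 without the second. *Mafa* to *Hhex* had the largest upward change of the 18 ratios, from -2.55, -2.53 and -1.95 to -0.22, -0.20 and -0.18, which is 4.42-fold in the mean ratio (exact p = 0.1). *Mnx1* to *Hhex* moved by 0.30 without overlap, and by 0.16 with the length trend taken out. Against *Pax6* as an islet gene of both stages, *Mafa* was 2.84-fold higher, *Hhex* changed by -0.64 and *Irx2* by -0.36 on the log2 scale, each without overlap (exact p = 0.1), and the other 4 members overlapped between stages. The change of *Pou3f4* to *Pax6* was -1.07, and it was -0.51 without the first 15.5 dpc sample. With the length trend taken out at the table's length of *Pax6*, *Mafa* to *Pax6* changed by 0.78, *Hhex* by -1.04 and *Irx2* by -0.80 on the log2 scale.

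**Figure D3:**
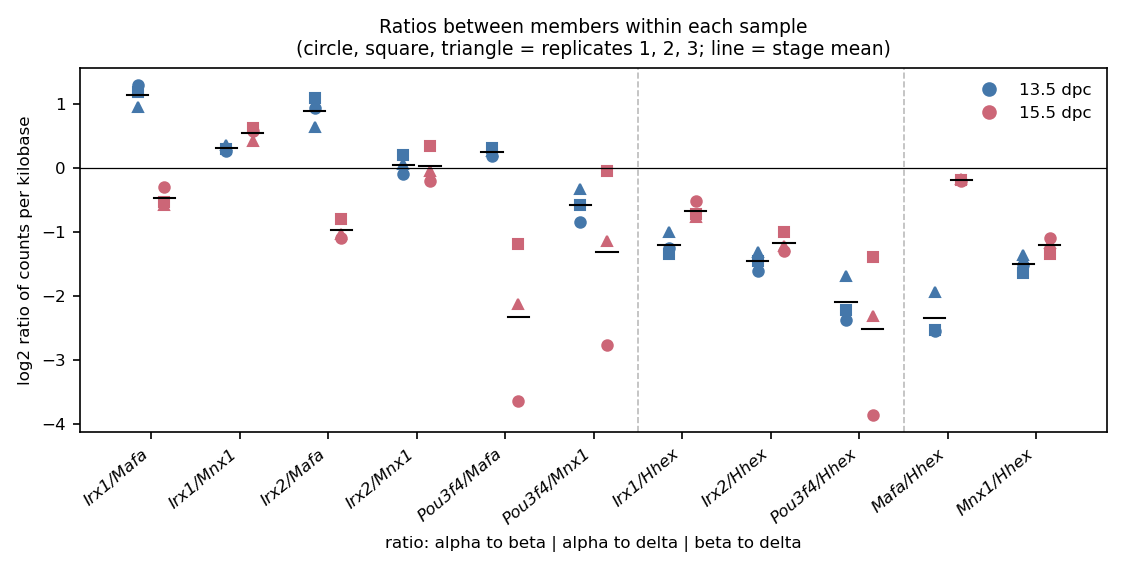
Log2 ratio of counts per kilobase between members of different types (vertical axis) in each sample, for the 11 pairs named on the horizontal axis, with circle, square and triangle for replicates 1, 2 and 3 and a line at each stage mean. *Irx1*/*Mafa* and *Irx2*/*Mafa* lie above 0 in all 13.5 dpc samples and below 0 in all 15.5 dpc samples, whereas *Irx2*/*Mnx1* lies around 0 at both stages.

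Ordered by normalised counts per kilobase of counted exon, *Hhex* (179) and *Isl1* (172) led at 13.5 dpc and overlapped each other. Next came *Irx1* at 77.7, then *Irx2* at 64.9 and *Mnx1* at 62.9, which overlapped, then *Pou3f4* at 42.3 and *Mafa* at 35.6, which also overlapped, and *Pax6* at 21.8. At 15.5 dpc the order was *Isl1* at 152, *Hhex* at 118, *Mafa* at 103, *Irx1* at 74.3, *Irx2* at 52.3 and *Mnx1* at 51.3, and below these *Pou3f4* at 25.5 and *Pax6* at 22.5. There, *Irx2* and *Mnx1* overlapped, as did *Pou3f4* and *Pax6*. *Mafa* thus passed from the seventh to the third place, and at 15.5 dpc it lay above every alpha-type member in every sample.

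These levels depend on the gene models. For *Mafa* the table counted 1080 bases, 39.4% of the exon bases of the GENCODE M21 model, and nearly all of them coding. *Pou3f4* had 1182 bases, 40.4% of its model and again nearly all coding. *Hhex* had 3838, including a long first exon that reaches upstream of the RefSeq start. Per kilobase of the coding mRNA within the counted exons, a length chosen after the data were seen, *Pax6* came right after *Hhex* and *Isl1* at both stages, with 151 and 156. On this length *Hhex* (381) and *Isl1* (271) still led at 13.5 dpc, and *Mafa* moved from the last place to the fourth. At 15.5 dpc *Hhex* (252) came before *Isl1* (239), with overlap, unlike the order by counted exon. *Irx2* (81.2) likewise came before *Irx1* (77.7) at 13.5 dpc, with overlap.

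**Figure D4:**
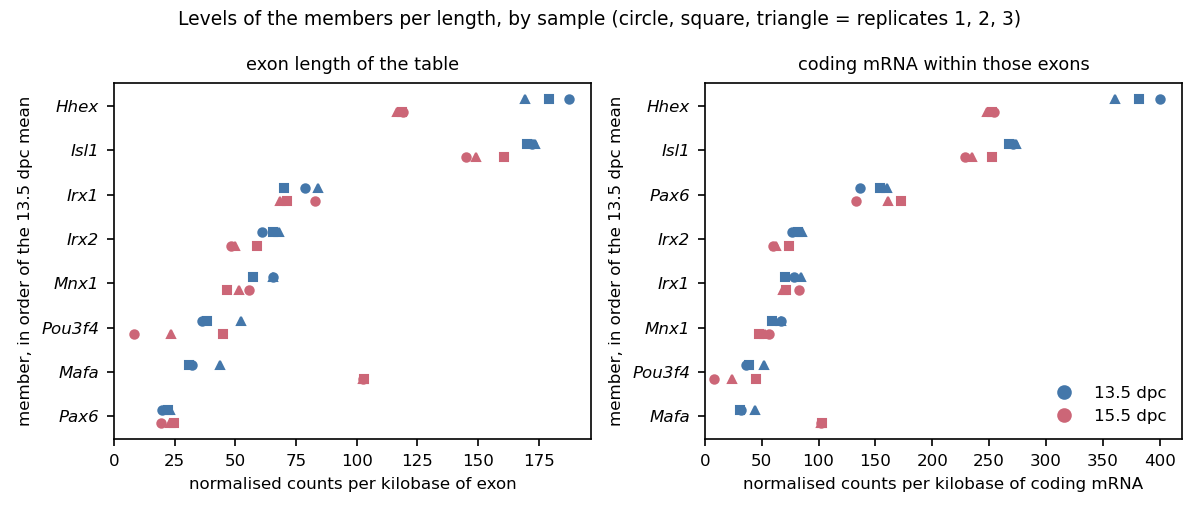
Level of each member in each sample as normalised counts per kilobase (horizontal axes), by the exon length of the table on the left and by the coding mRNA within those exons on the right, with circle, square and triangle for replicates 1, 2 and 3. On both lengths *Mafa* moves to 103 at 15.5 dpc from 35.6, while the place of *Pax6* differs between the panels.

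The genes whose pattern over the 6 samples was most like that of each member were found by the root mean square difference of centred log2 values, as a description with no test. *Nr1h4* (0.0674), *Sel1l* (0.0927) and *Mocos* (0.0995) lay nearest to *Mafa*. *Pcbp3* (0.0257), *Tyro3* (0.0332) and *Rcbtb2* (0.0378) lay nearest to *Hhex*. For *Pou3f4* the nearest were *Zdhhc23* (0.083), *Mgat5* (0.0844) and *Tbck* (0.0904), each with its lowest level in the first 15.5 dpc library. The nearest to the other members were *Slc10a3*, *Arsa* and *Mafg* for *Irx1*, *Numbl*, *Tbc1d5* and *Olfm1* for *Irx2*, *Ip6k2*, *Hps4* and *Sema6c* for *Mnx1*, *Aco1*, *Nbr1* and *Macc1* for *Pax6*, and *Zfyve27*, *Pold1* and *Unc119b* for *Isl1*, at distances of 0.015 to 0.0469. Among the members themselves *Irx2* and *Isl1* were closest (0.0913), followed by *Irx1* and *Mnx1* (0.132), and *Mafa* stood 0.747 from its nearest member, *Pax6*. Of 15436 genes compared, 507 lay nearer to *Irx2* than *Isl1* did, and 1002 lay nearer to *Isl1* than *Irx2* did. For *Irx1* and *Mnx1* these counts were 1010 and 745.

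Other islet transcription factors gave 3 higher, 5 lower and 12 not called of 20 tested, beside 11.6% higher and 10.7% lower over all genes, with a median log2 fold change of -0.29 against -0.01 over all genes. *Nkx6-1*, a beta cell and progenitor factor, fell by 0.39 (adjusted p = 0.0178). *Hnf4a*, a regulator of epithelial genes also used in liver and gut, rose by 0.53 (adjusted p = 0.0225).

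The hormone genes of beta, delta, epsilon and PP cells rose, and that of alpha cells did not pass the test. *Gcg*, which encodes glucagon, had a mean of 15868 ± 967 normalised counts at 13.5 dpc and 12725 ± 1954 at 15.5 dpc, a log2 fold change of -0.32 that did not pass (adjusted p = 0.114). *Ins1* rose by 2.57 on the log2 scale (adjusted p = 0.0022), from 707.1, 964.6 and 960.4 to a mean of 5225 ± 2263, and *Ins2* rose by 2.64 (adjusted p = 0.00221). *Sst*, which encodes somatostatin, rose by 3.41 (adjusted p = 0.00108), from 76.1 ± 17.7 to 815.8 ± 362.6, while *Hhex* fell. *Ghrl* was 2.11-fold higher (adjusted p = 0.00411) and *Ppy* 3.92-fold (adjusted p = 0.00693).

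The counts of the cell type lists stand beside the same shares over all genes, 11.6% higher and 10.7% lower, and the same median of -0.01. Of the 9 alpha cell genes 2 rose and 3 fell, with a median of -0.08. *Gc* (0.85) and *Pcsk2* (0.49) were higher, and *Slc38a5* (-0.77) and *Ldb2* (-0.67) were lower. *Ldb2* is counted again among the LIM cofactors below, and whether these genes were read from alpha cells alone was not tested. Of 11 beta cell genes tested 7 rose and 1 fell, with a median of 0.96, and of 5 genes of delta, epsilon and PP cells 4 rose, with a median of 1.08. Of 10 secretory genes shared by islet cells 2 rose, *Scg2* (1.41) and *Cpe* (0.79), and 2 fell, *Chgb* (-0.63) and *Ptprn* (-0.53). The beta cell list thus had its median on the side of *Mafa* and not on that of *Mnx1*.

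**Figure D5:**
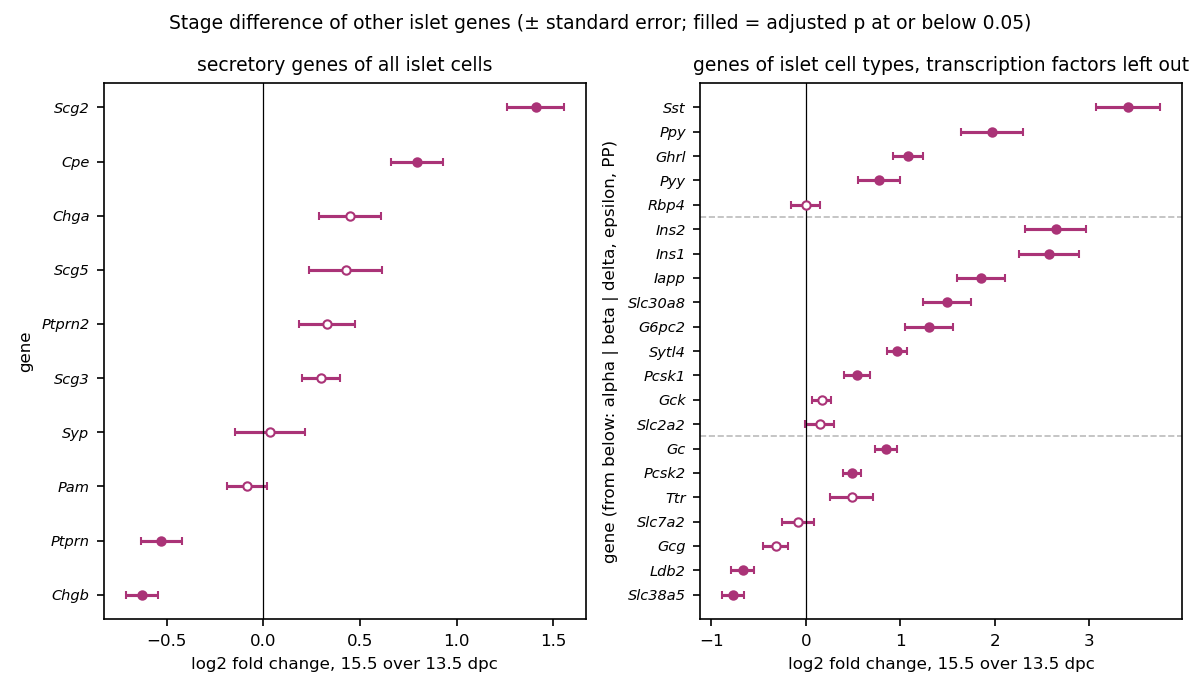
Log2 fold change, 15.5 over 13.5 dpc (horizontal axes), with its standard error, for secretory genes of all islet cells on the left and for genes of alpha, beta and other islet cell types on the right, transcription factors left out, filled where the adjusted p was at or below 0.05. *Ins1*, *Ins2* and *Sst* lie beyond 2.5, *Scg2* lies at 1.41 and *Chgb* at -0.63, and *Gcg* is open at -0.32.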

How the data were processed

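Poly(A) RNA from pools of embryonic pancreata, 3 samples at 13.5 dpc and 3 at 15.5 dpc, was sequenced from strand-specific single-end libraries. The authors aligned reads to mm10 with GSNAP and counted uniquely aligned reads per gene with featureCounts 1.4.6 on Ensembl genes, and the deposited values are raw counts. The strand setting of the counting is not given in the sources used here. Of 37224 genes, 35449 matched a symbol. Counts were tested with edgeR 4.0.16 in R 4.3.3 (filterByExpr, TMM, quasi-likelihood, no covariate, two-sided), with p-values adjusted by Benjamini-Hochberg over the 15578 genes kept, which held at least 99.86% of the reads of each library. Normalised counts are counts divided by the effective library size and multiplied by the geometric mean of these sizes. Log2 fold changes are 15.5 over 13.5 dpc.

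The members and lists were chosen with earlier results of these data known. All members were named, with the hormone genes, up to 2 called genes at each end of every list, the paralogues with the highest level, and 3 nearest genes per member (centred log2 CPM, prior count 2). *Elp4* was named beyond this rule, after its values were seen, and some genes that the rule names are not reported here. The labels call the samples biological replicates, and p-values measure the spread between pools. No pair of libraries agreed within sampling noise. On simulated counts the fit recovered 94 of 100 genes changed 4-fold and 75 of 100 changed 2-fold, and with a gene length trend simulated and left in place 94 and 47 of 100. Alternatives were other normalisations, DESeq2 1.42.0, other filters, removal of each library's lowess trend with gene length, a replicate block and leaving out each sample. Promoter windows came from RefSeq and gene models also from GENCODE M21. Library depth limits *Pou3f4* and *Mafa* most.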

Additional observations from a re-analysis of the deposited data

How the results depend on the processing

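Of 127 comparisons of a member with an alternative setting, 116 kept direction and side of the threshold, 8 gained a call, 3 changed sign and none lost a call. *Mafa* and *Hhex* kept both under all settings, *Hhex* with adjusted p up to 0.0391. With library size as the only scaling, which shifts the median of all genes to -0.22, *Irx2* was at -0.52 (adjusted p = 0.047), *Mnx1* at -0.51 (adjusted p = 0.0248), *Isl1* at -0.39 (adjusted p = 0.0486) and *Pax6* at -0.16 (adjusted p = 0.489), giving 5 members called, where 26.2% of all genes were, and 2 past the study's thresholds, which 1714 of 15578 genes passed. With the gene length trend taken out, 4 members were called, where 32.9% of all genes were, *Mnx1* at -0.40 (adjusted p = 0.0308) and *Pax6* at 0.49 (adjusted p = 0.0392). With the members at counted coding mRNA length, added after seeing the data, 3 were called, where 32.9% of all genes were. *Mnx1* was again at -0.40 (adjusted p = 0.0294). The study's thresholds were passed by 2 members, *Mafa* and *Hhex*, and by 8.36% of all genes. *Hhex*, at -0.75, passed them with its length set to 1799 bases in place of 3838. Leaving out each sample gave 1235 to 7620 called genes and 2 to 4 called members, the 7620 genes (48.0% of those tested) and the 4 members without the second 15.5 dpc sample. Over the same left-out samples *Irx2* ranged from -0.39 to -0.25, *Pou3f4* from -1.39 to -0.29 and *Pax6* from -0.0189 to 0.15, where *Pax6* was at -0.0173 without the first 13.5 dpc sample and at -0.0189 without the second 15.5 dpc sample. At an adjusted p of 0.1, 5303 genes were called. The cause of these shifts was not tested. *Pou3f4* could not be tested where at least 10 counts were asked of every sample. Of 126 comparisons of a ratio 116 moved by less than the spread between samples, which for ratios of *Pou3f4* is wide enough to hold a change of sign, and the 10 others came with the length trend taken out. With the prior count of the log values at 0.5, 2 of the 3 nearest genes of *Irx1* and of *Pou3f4* were shared.

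Replicate numbers do not pair the samples, with correlations of deviations of 0.22, -0.218 and 0.038 for numbers 1, 2 and 3. With the replicate block 2676 genes and 2 members were called, *Mafa* at 1.53 (adjusted p = 0.00527) and *Hhex* at -0.60 (adjusted p = 0.021), and no member changed its call.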

Other observations

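Paralogues of the members included 16 genes, of which 10 had enough reads to be tested. None rose and 2 fell, a share close to the 22.3% of all genes that were called. *Isl2*, a LIM-homeodomain relative of *Isl1* known from motor neurons, had 34.6, 32.6 and 34.5 normalised counts at 13.5 dpc and a mean of 8.15 ± 3.46 at 15.5 dpc, a fold of 0.25 (edgeR, adjusted p = 0.00418). *Maf*, the paralogue of *Mafa* with the highest level, fell by 0.40 on the log2 scale (adjusted p = 0.0304).

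Cofactors of LIM-homeodomain proteins and TALE-class homeodomain partners were lower where they passed the test. Of 10 tested 6 fell and none rose, beside 10.7% of all genes lower and 11.6% higher, with a median log2 fold change of -0.51 against -0.01 over all genes. *Meis1* fell by 0.89 (adjusted p = 0.00618). Their summed level was 18250 to 19220 normalised counts at 13.5 dpc and 13110 to 13560 at 15.5 dpc, without overlap. Mesenchymal markers, of a tissue where these genes are also expressed, were lower too where they passed, with 4 of 8 fallen and none risen. Their full sum overlapped between stages, at 94810 to 106400 and at 69170 to 101300. Without the collagen genes *Col1a1* and *Col3a1*, a cut that was not planned, the others summed to 16990 to 17450 and to 12850 to 13530. The part of mesenchyme in this difference was not tested.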
